A study of Homo sapiens with 8 samples.

Results

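FAM193A, its paralog FAM193B and 8 genes whose proteins modify the tumour suppressor p53 or work with it were followed across the 4 groups of the study. The 8 are the kinases ATM and HIPK2, the acetyltransferases EP300, CREBBP and KAT5, the deubiquitinases USP7 and USP28, and the scaffold gene TP53BP1. These 10 genes were picked by name from the 25369 genes listed in the deposited tables. All 10 were among the 15879 genes with enough reads to be tested, so none was lost to the filter on low counts.

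The study measured polyadenylated RNA of CHP212, a cell line derived from a human neuroblastoma, a childhood tumour of the sympathetic nervous lineage. Its groups were FAM193A knockout (KO) cells with Nutlin-3a, KO cells with DMSO, wild-type (WT) cells with Nutlin-3a and WT cells with DMSO, with 2 libraries each. Nutlin-3a was given at 10 uM and its solvent DMSO at 0.2%, and every group was collected after 12 h. The replicates are independent biological ones according to the study's design text. The labels name 1 KO cell population and do not describe the edit, so an effect of losing FAM193A and any other property of that population cannot be told apart.

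In unstressed cells p53 is kept scarce by MDM2, a ubiquitin ligase that binds it and sends it to the proteasome. Nutlin-3a fills the pocket of MDM2 that holds p53, and p53 then accumulates and activates its target genes without DNA damage. Kinases such as ATM and HIPK2 and acetyltransferases such as EP300, CREBBP and KAT5 add marks to p53 that change its stability and its activity at promoters. USP7 removes ubiquitin from both MDM2 and p53, and USP28 acts with the TP53BP1 protein (53BP1) in a p53-dependent arrest after prolonged mitosis. FAM193A has been reported to act in favour of p53 activity.

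The 8 libraries held 28390405 to 38010075 reads in genes. The neuroblastoma markers HAND2 and MYCN were read in every library, and 0 of 12 neuroblastoma markers were at 0 in any of them. Some were near the floor in WT cells, where 9 to 11 of the 12 had over 10 reads per library, against 12 in every KO library. CHGB had 2 to 8 reads in WT and 19 to 31 in KO libraries, and CHGA 4 to 14 and 663 to 1236. TH, which encodes tyrosine hydroxylase, had 347 to 455 reads in KO libraries and 6344 to 14512 reads in WT libraries. Of 23 markers of other cell types, 5 to 10 per library were at 0, and CD3E, MYH6 and HBG1 were at 0 in all 8. Their summed level was 6472 to 7408 CPM (read counts scaled to a common library total) in KO libraries and 4637 to 5498 CPM in WT libraries. Most of it came from COL1A1, with 144365 to 170551 reads in KO libraries and 94285 to 126233 reads in WT libraries. The part these genotype differences play in the results was not tested. KRT20 had 37 reads in replicate 2 of Nutlin-3a-treated KO cells and 38 in replicate 2 of DMSO-treated WT cells, against 0 to 2 in the other 6 libraries.

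The replicates of Nutlin-3a-treated WT cells stood apart from each other by gene length. Replicate 2 minus replicate 1 had a median log2 difference of 0.09 over genes longer than 4514 bases and of -0.10 over genes shorter than 2579 bases. In the other 3 groups these medians lay between -0.01 and 0.01. Of the 10 genes, 9 are longer than 4514 bases in the authors' table and KAT5, at 2332 bases, is shorter than 2579. The part of gene length in the results was not tested by an independent measure, but values with the length trend of each library removed stand beside the calls that changed.

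**Figure D1:**
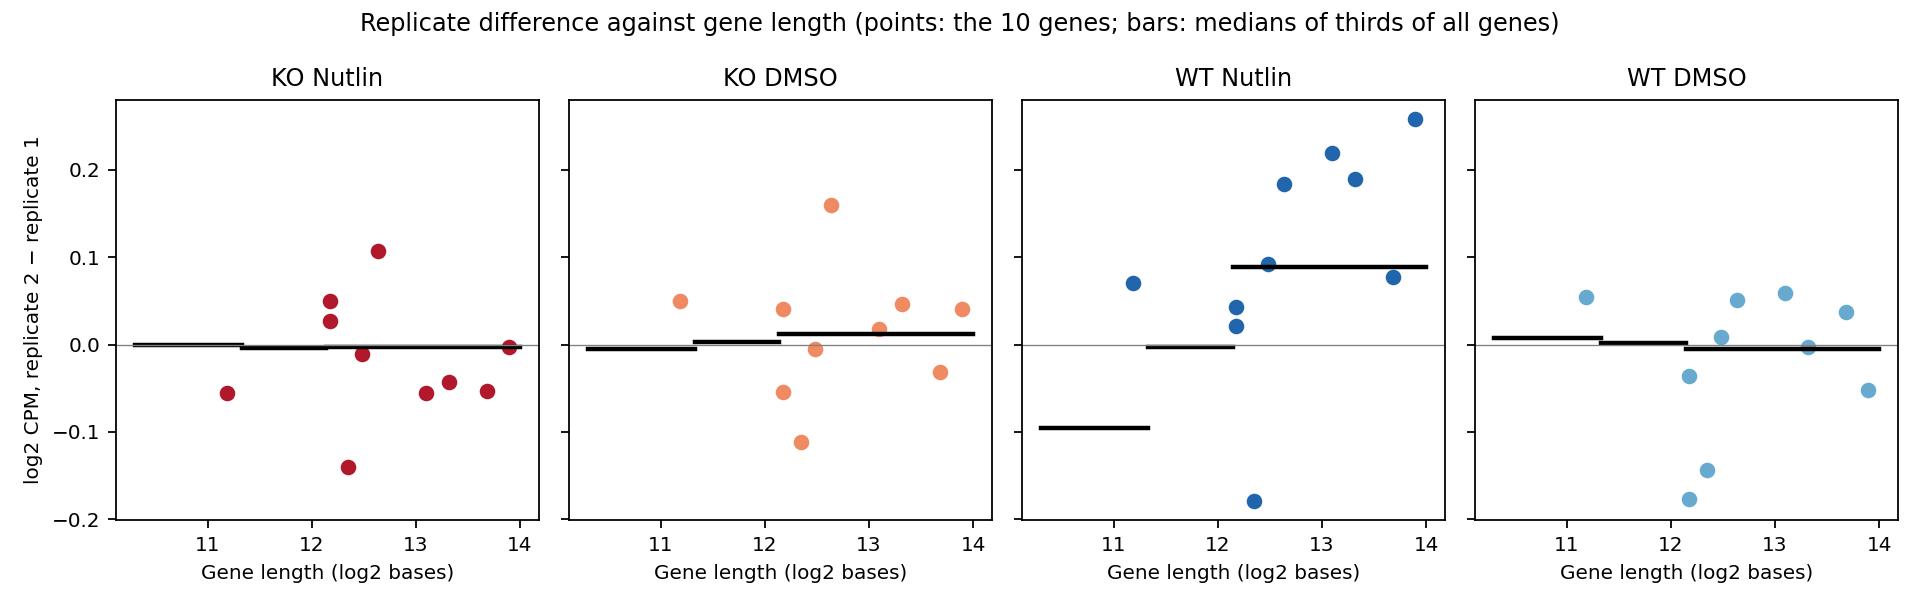
Difference between the replicates of each group on the log2 CPM scale (replicate 2 minus replicate 1, vertical axis) against gene length (log2 bases, horizontal axis). Points are the 10 genes and bars are the medians of the shorter, middle and longer genes of all genes compared. In Nutlin-3a-treated WT cells the bars climb from -0.10 for the shortest genes to 0.09 for the longest, and HIPK2, the longest of the 10, has a difference of 0.26.

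Per length, the 10 transcripts were all moderately abundant and spanned less than an order of magnitude. USP7 had the highest RPKM (counts divided by gene length and by library total) in all 4 groups, with 29.1 ± 0.31 in Nutlin-3a-treated KO cells, 29.9 ± 0.12 in DMSO-treated KO cells, 31.0 ± 1.62 in Nutlin-3a-treated WT cells and 34.4 ± 0.036 in DMSO-treated WT cells (SD, n = 2 each). TP53BP1 was next in every group, with mean RPKM values of 18.0, 20.5, 17.1 and 16.6 in that order of groups. HIPK2 was the lowest of the 10 in 3 groups, at 4.86 ± 0.033, 4.68 ± 0.087 and 5.08 ± 0.15 RPKM in Nutlin-3a-treated KO, DMSO-treated KO and DMSO-treated WT cells (SD, n = 2 each). In Nutlin-3a-treated WT cells USP28 was the lowest, at 5.78 ± 0.16 RPKM, below HIPK2 at 6.79 ± 0.90 RPKM (SD, n = 2 each), and the libraries of these genes did not overlap.

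Between these ends the order was less firm. In Nutlin-3a-treated KO cells the libraries of FAM193B and KAT5 overlapped, as did those of FAM193A and USP28. In DMSO-treated KO cells CREBBP overlapped ATM and ATM overlapped FAM193B, with means of 12.4, 12.3 and 12.3 RPKM. In Nutlin-3a-treated WT cells EP300 overlapped KAT5, KAT5 overlapped ATM and CREBBP overlapped FAM193A. In DMSO-treated WT cells no neighbours in the order overlapped. By mean RPKM over the 8 libraries HIPK2 stood at percentile 44.2 of the tested genes and USP7 at percentile 84.2.

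**Figure D2:**
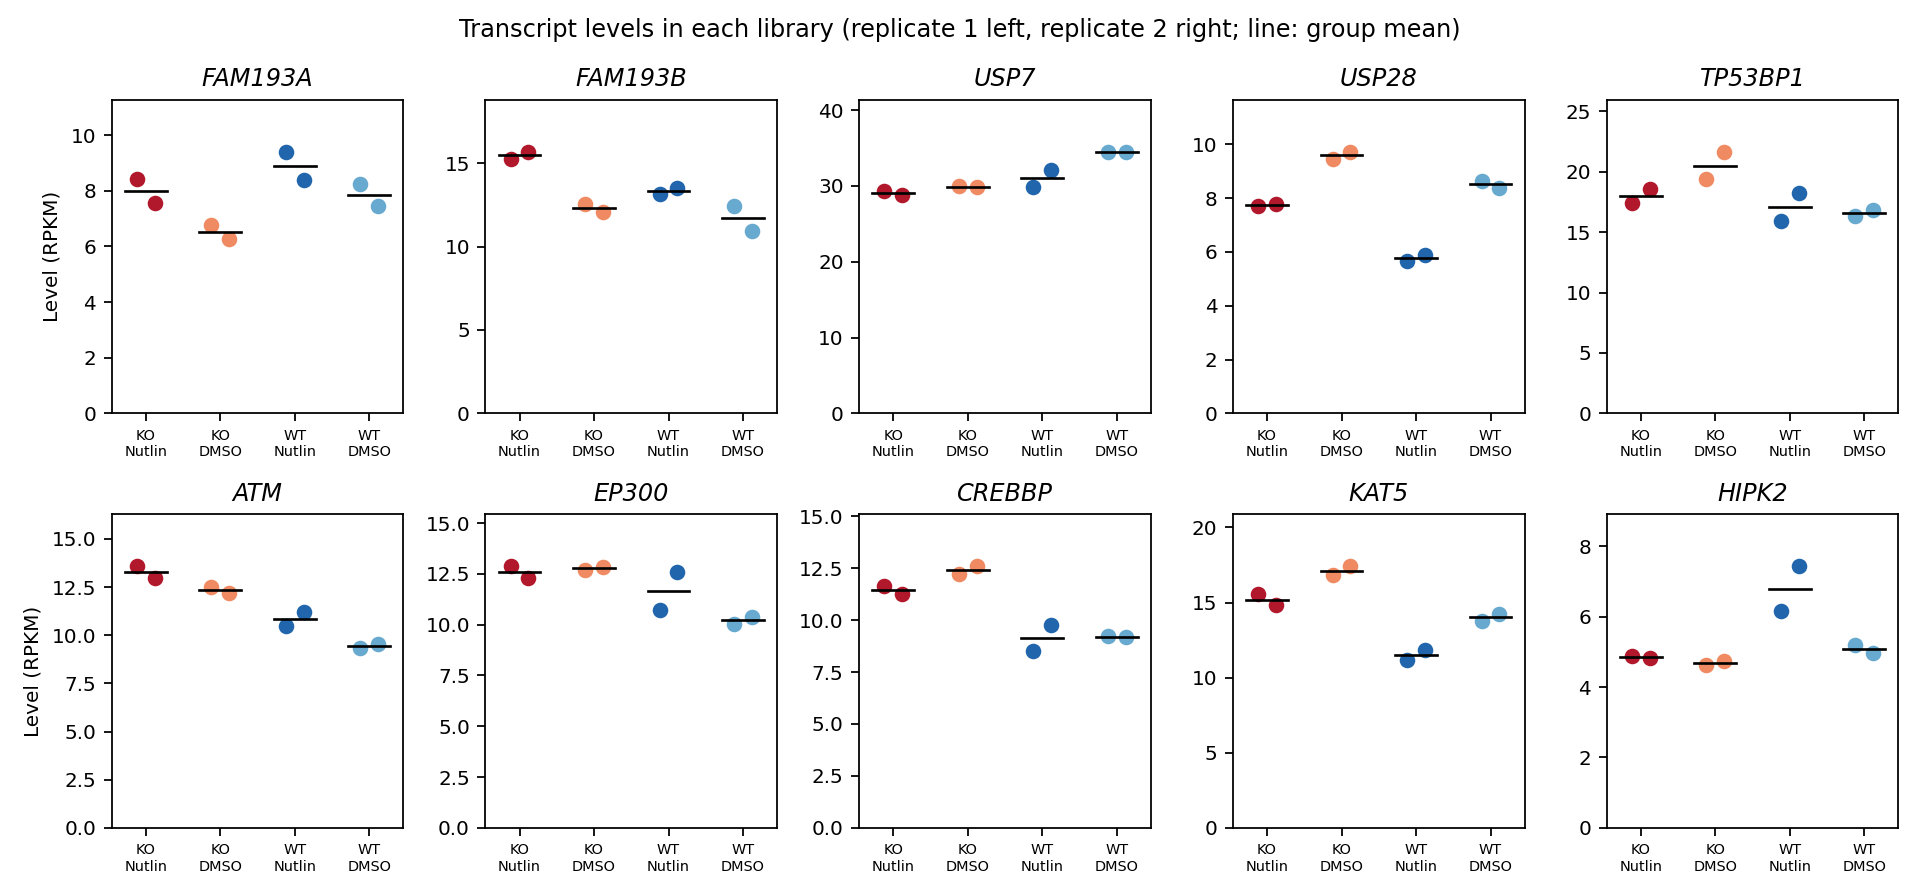
RPKM (vertical axis, starting at 0) of each of the 10 genes in every library, with KO groups left of WT groups and Nutlin-3a left of DMSO (replicate 1 left and replicate 2 right within a group). Lines are group means. USP28 is lowest in the Nutlin-3a-treated WT libraries, at 5.66 and 5.89 RPKM, and HIPK2 is highest there, at 6.15 and 7.43 RPKM.

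Nutlin-3a changed some of the 10 genes in each genotype, all by less than 2-fold. In KO cells FAM193A and FAM193B rose and USP28, TP53BP1, CREBBP and KAT5 fell. In WT cells FAM193B, ATM, EP300 and HIPK2 rose and USP7, USP28 and KAT5 fell. The tests were two-sided quasi-likelihood tests in edgeR over all genes, called at a Benjamini-Hochberg adjusted p under 0.05. In KO cells 2 of 10 were called higher and 4 lower, beside 18.1% and 20.6% of all tested genes, and in WT cells 4 were called higher and 3 lower, beside 29.4% and 29.2%. The share called in either direction, 6 of 10 in KO and 7 of 10 in WT cells, stood beside 38.7% and 58.6% of all tested genes. The median absolute log2 fold change of the 10 was 0.18 in KO cells, against 0.20 over all tested genes, and 0.18 in WT cells, against 0.35 over all tested genes. Calls in KO cells were the less firm ones. Without replicate 2 of DMSO-treated KO cells 2 genes were called there, FAM193B and USP28, and without replicate 1 of Nutlin-3a-treated KO cells 3 were called, the same 2 and KAT5.

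**Figure D3:**
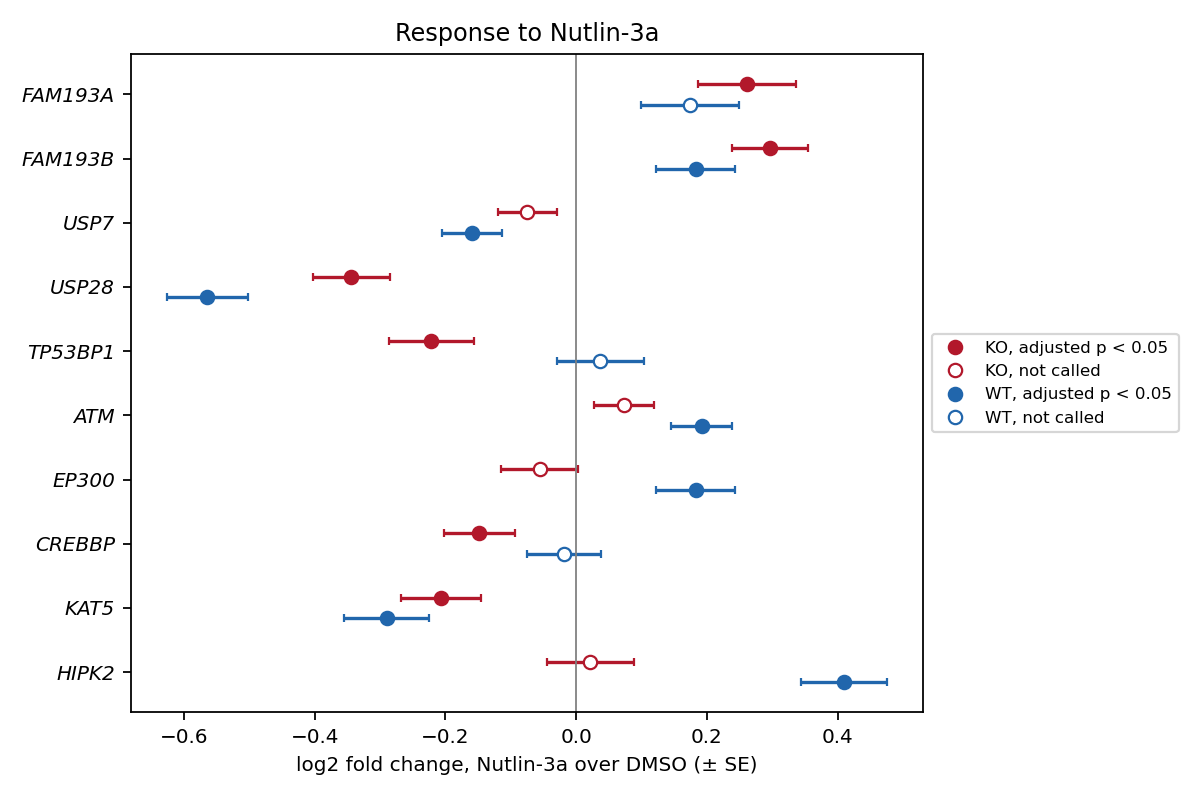
Log2 fold change of Nutlin-3a over DMSO (horizontal axis, bars ± SE from the edgeR fit) for each of the 10 genes in KO cells (upper, red) and WT cells (lower, blue). Filled points are called at an adjusted p under 0.05. USP28 is farthest to the left in both genotypes, at -0.34 in KO and -0.56 in WT cells, and HIPK2 is farthest to the right in WT cells, at 0.41, while it is at 0.02 in KO cells.

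Between the genotypes, ATM, CREBBP and KAT5 were higher in KO than in WT cells under both treatments, and FAM193A, USP7 and HIPK2 were lower under both. EP300 and TP53BP1 were called higher in KO cells under DMSO, and USP28 under Nutlin-3a. Under Nutlin-3a 4 of 10 were called higher and 3 lower in KO cells, beside 32.7% and 30.4% of all tested genes. Under DMSO 5 were called higher and 3 lower, beside 31.4% and 30.1%. The share called in either direction, 7 of 10 under Nutlin-3a and 8 of 10 under DMSO, stood beside 63.1% and 61.5% of all tested genes. The median absolute log2 difference of the 10 was 0.22 under Nutlin-3a, against 0.36 over all tested genes, and 0.25 under DMSO, against 0.34. Without replicate 2 of DMSO-treated KO cells 5 genes were called under DMSO. The comparisons share libraries, so their values for 1 gene are not independent of each other. In CPM the libraries of the 2 groups did not overlap for 10 of the 10 genes in the KO response and 8 in the WT response, beside 71.5% and 76.2% of all tested genes. Between genotypes it was 8 under Nutlin-3a and 9 under DMSO, beside 79.1% and 82.4%. Separated libraries, given for single genes below, are thus common among all genes.

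**Figure D4:**
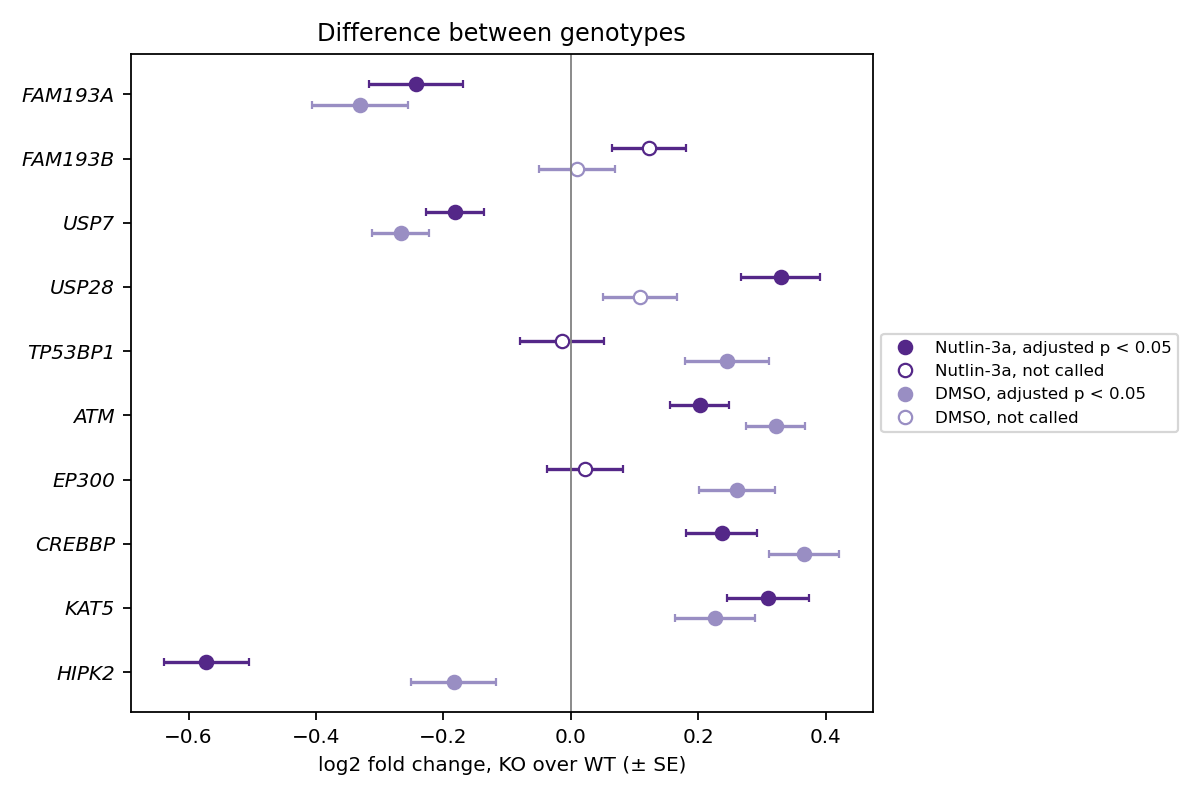
Log2 fold change of KO over WT (horizontal axis, bars ± SE from the edgeR fit) for each of the 10 genes under Nutlin-3a (upper, dark) and DMSO (lower, light). Filled points are called at an adjusted p under 0.05. HIPK2 under Nutlin-3a is farthest to the left, at -0.57, and CREBBP under DMSO farthest to the right, at 0.37.

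The 2 responses were also compared directly, as the Nutlin-3a response of KO cells minus that of WT cells. HIPK2 and EP300 were called, both with the lower response in KO cells. That is 0 of 10 called higher and 2 lower, beside 14.2% and 13.4% of all tested genes, or 27.5% in either direction. For the other 8 genes a call in 1 genotype and not in the other is not a shown difference. With replicate 1 of Nutlin-3a-treated WT cells left out 5 of the 10 were called, and without any 1 of 5 other libraries 1 was called.

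FAM193A, the gene targeted in the KO cells, had 42.0 and 38.1 CPM in Nutlin-3a-treated KO cells and 34.8 and 32.2 CPM in DMSO-treated KO cells. WT cells had 50.4 and 44.5 CPM with Nutlin-3a and 44.1 and 40.0 CPM with DMSO. The transcript was thus still read in KO cells, with 1240 to 1548 reads per library, against 1138 to 1529 in WT libraries, and a sum over the whole gene does not show where in the gene the reads lie. At each treatment both KO libraries were below both WT libraries in CPM. In RPKM, which is not TMM-scaled, the groups overlapped under Nutlin-3a, with 8.42 and 7.58 in KO cells and 9.40 and 8.38 in WT cells.

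FAM193A was lower in KO cells by a log2 fold change of -0.24 ± 0.07 under Nutlin-3a (SE, edgeR adjusted p = 0.00827) and of -0.33 ± 0.08 under DMSO (edgeR adjusted p = 0.000999). The difference under Nutlin-3a was -0.16 without replicate 1 of Nutlin-3a-treated WT cells (edgeR adjusted p = 0.0722) and -0.18 without replicate 2 of Nutlin-3a-treated KO cells (edgeR adjusted p = 0.107), so that call rests on single libraries. On log2(RPKM + 0.1) it was -0.15 (limma adjusted p = 0.175). With Nutlin-3a FAM193A rose in KO cells by 0.26 ± 0.07 (SE, edgeR adjusted p = 0.00953), a call lost without replicate 2 of DMSO-treated KO cells (0.20, edgeR adjusted p = 0.138) or replicate 1 of Nutlin-3a-treated KO cells (0.19, edgeR adjusted p = 0.149). In WT cells the change was 0.17 ± 0.07 (SE, edgeR adjusted p = 0.0538), which missed the threshold. The WT change was called without replicate 1 of DMSO-treated WT cells (0.27, edgeR adjusted p = 0.0244), without replicate 2 of Nutlin-3a-treated WT cells (0.26, edgeR adjusted p = 0.00282), with upper-quartile factors (0.20, edgeR adjusted p = 0.0313), with DESeq2 size factors (0.18, edgeR adjusted p = 0.0430) and without the low-count filter (0.17, edgeR adjusted p = 0.0302). The difference of the 2 responses was 0.09 ± 0.11 (SE, edgeR adjusted p = 0.590). A further fit left out 3 libraries together: replicate 2 of Nutlin-3a-treated KO, replicate 1 of Nutlin-3a-treated WT and replicate 2 of DMSO-treated WT cells. In it the difference of the 2 responses was 0.31, the change in WT cells was 0.04 and the genotype difference under Nutlin-3a was -0.09. Only DMSO-treated KO cells keep 2 libraries in that fit and the other groups keep 1 each, so only its effect sizes are given.

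FAM193B, the paralog, had 67.4 and 69.8 CPM in Nutlin-3a-treated KO cells, against 57.0 and 54.9 CPM in DMSO-treated KO cells. The WT libraries had 62.6 and 63.5 CPM with Nutlin-3a, against 58.9 and 52.1 CPM with DMSO. Both Nutlin-3a-treated libraries were above both DMSO-treated ones in each genotype. FAM193B rose by 0.30 ± 0.06 in KO cells (SE, edgeR adjusted p = 0.000488) and by 0.18 ± 0.06 in WT cells (edgeR adjusted p = 0.0142). The WT change was 0.10 without replicate 2 of DMSO-treated WT cells (edgeR adjusted p = 0.265) and 0.30 without replicate 1 (edgeR adjusted p = 0.00227), so its size depends on which of these libraries is kept. With the 3 libraries named above left out it was 0.13. Between genotypes the log2 difference of FAM193B was 0.12 ± 0.06 under Nutlin-3a (edgeR adjusted p = 0.0764) and 0.01 ± 0.06 under DMSO (edgeR adjusted p = 0.900), neither of them called. The first was called with upper-quartile factors (0.16, edgeR adjusted p = 0.0260) and in limma, at 0.21 on log2(RPKM + 0.1) and 0.20 on log2(RPKM + 1) (limma adjusted p = 0.0200 and 0.0206).

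Per length FAM193B was the more abundant of the pair in every library. The ratio of FAM193B to FAM193A RPKM was 1.81 and 2.07 in Nutlin-3a-treated KO cells and 1.85 and 1.93 in DMSO-treated KO cells. It was 1.40 and 1.61 in Nutlin-3a-treated WT cells and 1.51 and 1.47 in DMSO-treated WT cells. All 4 KO ratios were above all 4 WT ratios.

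The promoter windows of the FAM193 genes are shown because FAM193A is the gene altered in these cells and FAM193B was called higher with Nutlin-3a in both genotypes. Where a gene has several annotated starts, only the one farthest upstream was taken. Each window holds the 250 bases before that start, read 5′ to 3′ on the gene's strand from RefSeq sequence of GRCh38.p14. The reads were aligned to an older build, so no position was carried between them. Windows were found for 9 of the 10 genes, all but HIPK2. Capitals mark matches on either strand to the GC box (GGGCGG, bound by SP family factors), the CCAAT box (CCAAT), the E2F element (GGCGGGAA), the CHR element of cell-cycle genes (TTTGAA) or the 10-letter p53 motif, and matches may overlap.
FAM193A (chr4:2535125-2535374, plus strand): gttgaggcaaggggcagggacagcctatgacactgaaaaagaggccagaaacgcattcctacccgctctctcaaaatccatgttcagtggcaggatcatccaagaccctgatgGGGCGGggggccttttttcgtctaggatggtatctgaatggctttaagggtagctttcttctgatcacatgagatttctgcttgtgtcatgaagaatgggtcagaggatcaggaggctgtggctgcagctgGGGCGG
FAM193B (chr5:177554564-177554813, minus strand): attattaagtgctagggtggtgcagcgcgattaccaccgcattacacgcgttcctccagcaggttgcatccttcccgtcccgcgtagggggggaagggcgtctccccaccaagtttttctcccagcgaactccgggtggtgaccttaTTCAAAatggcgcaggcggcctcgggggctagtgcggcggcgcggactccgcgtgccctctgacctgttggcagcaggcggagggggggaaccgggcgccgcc
FAM193A has 2 GC boxes in its window, and FAM193B has 1 CHR match, on the opposite strand. Among 35114 windows of the same length in the table, 42.6% held a GC box, 32.0% a CCAAT box, 13.3% a CHR element, 2.72% an E2F element and 5.57% the p53 motif. None of the 9 windows held the p53 motif, which says only that its letters are not in these windows.

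By the correlation of log2 CPM over the 8 libraries, taken over 9616 genes, the genes most like FAM193A were EIF6 (Pearson r = 0.981), RBM6 (0.968) and TICAM1 (0.964). Those most like FAM193B were RAD52 (0.969), ZNF783 (0.961) and MTCL1 (0.951). The 8 points of each correlation share the 4 group means and the scaling of each library, so these values describe the libraries only. RNF4 overlaps FAM193A on the same strand by 305 bases in the annotation used here. RNF4 fell with Nutlin-3a in WT cells, with a log2 change of -0.26 ± 0.05 (SE, edgeR adjusted p = 0.000181), where FAM193A had a change of 0.17. Its KO response was -0.04 ± 0.05 (SE, edgeR adjusted p = 0.498). In KO cells RNF4 was lower under DMSO, with a log2 difference of -0.14 ± 0.05 (SE, edgeR adjusted p = 0.0176), where FAM193A was lower too, and under Nutlin-3a its difference was 0.07 ± 0.05 (edgeR adjusted p = 0.206).

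Of the kinases, HIPK2 rose with Nutlin-3a in WT cells and was lower in KO cells. HIPK2, which phosphorylates p53 after severe damage, had 71.3 and 71.2 CPM in Nutlin-3a-treated KO cells, against 69.1 and 71.1 CPM in DMSO-treated KO cells. In WT cells it had 96.5 and 115 CPM with Nutlin-3a, against 81.1 and 78.2 CPM with DMSO. Both Nutlin-3a-treated WT libraries were above the other 6, and all 4 KO libraries were below all 4 WT libraries. The 2 Nutlin-3a-treated WT libraries were themselves far apart, replicate 2 being 19.6% above replicate 1.

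The Nutlin-3a response of HIPK2 was 0.02 ± 0.07 in KO cells (log2, SE, edgeR adjusted p = 0.830) while HIPK2 rose by 0.41 ± 0.07 in WT cells (edgeR adjusted p = 5.0e-05). The difference of the 2 responses was -0.39 ± 0.09 (SE, edgeR adjusted p = 0.00546). Without replicate 2 of Nutlin-3a-treated WT cells the WT response was 0.27 (edgeR adjusted p = 2.2e-05) and the difference of responses -0.25 (edgeR adjusted p = 0.00347). With the length trend removed, an alternative added after seeing the data, they were 0.28 (edgeR adjusted p = 9.2e-06) and -0.26 (edgeR adjusted p = 0.00308). On log2(RPKM + 0.1) the difference of responses was -0.35 and missed the threshold (limma adjusted p = 0.0930). HIPK2 was lower in KO cells, with a log2 change of -0.57 ± 0.07 under Nutlin-3a (SE, edgeR adjusted p = 1.1e-06) and of -0.18 ± 0.07 under DMSO (edgeR adjusted p = 0.0250). The difference under DMSO was not called with any 1 of the 4 DMSO libraries left out, with adjusted p between 0.0619 and 0.154 in edgeR.

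ATM, the kinase that answers DNA double-strand breaks, had 171 and 165 CPM in Nutlin-3a-treated KO cells and 162 and 158 CPM in DMSO-treated KO cells. WT cells had 142 and 150.0 CPM with Nutlin-3a and 126 and 129 CPM with DMSO. All 4 KO libraries were above all 4 WT libraries. ATM was higher in KO cells by 0.20 ± 0.05 under Nutlin-3a (SE, edgeR adjusted p = 0.000924) and by 0.32 ± 0.05 under DMSO (edgeR adjusted p = 8.7e-06). Nutlin-3a raised ATM in WT cells by 0.19 ± 0.05 (SE, edgeR adjusted p = 0.00177), but by 0.08 with the length trend removed (edgeR adjusted p = 0.133), which ended the call. In KO cells the change was 0.07 ± 0.05 (SE, edgeR adjusted p = 0.225), and the difference of the 2 responses was -0.12 ± 0.07 (edgeR adjusted p = 0.198). Without replicate 1 of Nutlin-3a-treated WT cells these 2 values were 0.09 and -0.16, and without the 3 libraries they were 0.11 and -0.16. With the length trend removed the difference of the 2 responses was 0.0017. NPAT, a gene that starts beside ATM on the opposite strand and overlaps it by 143 bases, fell in both genotypes, with log2 changes of -0.46 ± 0.08 in KO and -0.68 ± 0.08 in WT cells (SE, edgeR adjusted p = 8.8e-05 and 6.2e-07).

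EP300 and CREBBP encode the paired acetyltransferases p300 and CBP, which serve as coactivators of p53. EP300 had 108 and 104 CPM in Nutlin-3a-treated KO cells, against 109.6 and 111 CPM in DMSO-treated KO cells. The WT libraries had 96.6 and 112 CPM with Nutlin-3a, against 90.1 and 93.9 CPM with DMSO. In CPM replicate 2 of Nutlin-3a-treated WT cells, 16.4% above replicate 1, was higher than every KO library, while the other 3 WT libraries were below every KO library. In RPKM that replicate 2, at 12.58, was above only replicate 2 of Nutlin-3a-treated KO cells, at 12.28. The other KO libraries had 12.71 to 12.86 RPKM.

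EP300 rose with Nutlin-3a in WT cells by 0.18 ± 0.06 (SE, edgeR adjusted p = 0.0147), while its change in KO cells was -0.06 ± 0.06 (edgeR adjusted p = 0.491). The WT change was 0.07 without replicate 2 of Nutlin-3a-treated WT cells (edgeR adjusted p = 0.262), 0.31 without replicate 1 (edgeR adjusted p = 9.9e-07) and 0.18 without replicate 1 of DMSO-treated WT cells (edgeR adjusted p = 0.0810), and with the length trend removed it was 0.11 (edgeR adjusted p = 0.0411). The difference of responses, -0.24 ± 0.08 (SE, edgeR adjusted p = 0.0429), was called with replicate 1 of Nutlin-3a-treated WT cells left out and was lost with any other library left out (edgeR adjusted p between 0.0790 and 0.160). With the length trend removed it was -0.15 (edgeR adjusted p = 0.0785). EP300 was higher in KO cells under DMSO by 0.26 ± 0.06 (SE, edgeR adjusted p = 0.00100), and its difference under Nutlin-3a was 0.02 ± 0.06 (edgeR adjusted p = 0.768). Without replicate 2 of Nutlin-3a-treated WT cells the difference under Nutlin-3a was 0.13 and called (edgeR adjusted p = 0.0185).

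CREBBP had 114 and 111 CPM in Nutlin-3a-treated KO cells and 123 and 127 CPM in DMSO-treated KO cells. In WT cells it had 89.2 and 102 CPM with Nutlin-3a and 96.7 and 96.6 CPM with DMSO. All 4 KO libraries were above all 4 WT libraries. CREBBP was higher in KO cells by 0.24 ± 0.06 under Nutlin-3a (SE, edgeR adjusted p = 0.00120) and by 0.37 ± 0.06 under DMSO (edgeR adjusted p = 1.5e-05), and the first was 0.14 without replicate 1 of Nutlin-3a-treated WT cells (edgeR adjusted p = 0.0145). Nutlin-3a lowered CREBBP in KO cells by a log2 change of -0.15 ± 0.05 (SE, edgeR adjusted p = 0.0389). That call was lost in 6 of the 8 fits that leave out 1 library, all but those without either replicate of Nutlin-3a-treated WT cells, and under DESeq2 (adjusted p = 0.108). In WT cells the change was -0.02 ± 0.06 (SE, edgeR adjusted p = 0.798), with the libraries overlapping. It was called lower without replicate 2 of Nutlin-3a-treated WT cells (-0.12, edgeR adjusted p = 0.0418) and with the length trend removed (-0.11, edgeR adjusted p = 0.0270). The difference of the 2 responses was -0.13 ± 0.08 (SE, edgeR adjusted p = 0.247). It was -0.23 without replicate 1 of Nutlin-3a-treated WT cells and -0.21 without the 3 libraries.

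The ratio of EP300 to CREBBP RPKM was 1.10 and 1.09 in Nutlin-3a-treated KO cells and 1.04 and 1.02 in DMSO-treated KO cells. It was 1.26 and 1.29 in Nutlin-3a-treated WT cells and 1.08 and 1.13 in DMSO-treated WT cells. The Nutlin-3a-treated WT libraries had the highest 2 ratios, and the replicates of that group were close in this ratio although each gene differed between them.

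KAT5, which encodes TIP60, an acetyltransferase of p53 and of histones within the NuA4 complex, had 34.8 and 33.4 CPM in Nutlin-3a-treated KO cells and 38.7 and 40.0 CPM in DMSO-treated KO cells. WT cells had 26.9 and 28.2 CPM with Nutlin-3a and 33.0 and 34.3 CPM with DMSO. In each genotype both Nutlin-3a-treated libraries were below both DMSO-treated ones. KAT5 fell, with log2 changes of -0.21 ± 0.06 in KO cells (SE, edgeR adjusted p = 0.0121) and of -0.29 ± 0.07 in WT cells (edgeR adjusted p = 0.000924). The KO change was not called without replicate 2 of DMSO-treated KO cells (-0.18, edgeR adjusted p = 0.112), without replicate 2 of Nutlin-3a-treated KO cells (-0.18, edgeR adjusted p = 0.0880) or under DESeq2 (-0.20, adjusted p = 0.0598). KAT5 was higher in KO cells by 0.31 ± 0.06 under Nutlin-3a (SE, edgeR adjusted p = 0.000414) and by 0.23 ± 0.06 under DMSO (edgeR adjusted p = 0.00434). The DMSO difference missed the threshold without replicate 2 of DMSO-treated KO cells (0.20, edgeR adjusted p = 0.0502).

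RNASEH2C lies on the opposite strand and shares 1439 bases with KAT5 in the annotation used here. RNASEH2C fell with Nutlin-3a too, with log2 changes of -0.33 ± 0.05 in KO and -0.40 ± 0.05 in WT cells (SE, edgeR adjusted p = 4.4e-05 and 2.9e-06), while its genotype differences were not called (0.09 under Nutlin-3a and 0.02 under DMSO). The libraries keep the strand of a read, but the strand setting of the counting is not given in the sources used here. Reads of the 2 genes may therefore be mixed.

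USP28, the deubiquitinase that acts with 53BP1, had the largest absolute response to Nutlin-3a of the 10 genes in both genotypes. It had 34.2 and 34.8 CPM in Nutlin-3a-treated KO cells, against 43.1 and 44.4 CPM in DMSO-treated KO cells. The WT libraries had 27.0 and 27.9 CPM with Nutlin-3a, against 41.1 and 40.1 CPM with DMSO. Both Nutlin-3a-treated groups were below both DMSO-treated groups, and the Nutlin-3a-treated WT libraries were the lowest of all. USP28 fell, with log2 changes of -0.34 ± 0.06 in KO cells (SE, edgeR adjusted p = 0.000113) and of -0.56 ± 0.06 in WT cells (edgeR adjusted p = 2.7e-07), and both falls were called under every alternative run. The difference of the 2 responses was 0.22 ± 0.09 (SE, edgeR adjusted p = 0.0623), which missed the threshold. That difference was 0.24 with the length trend removed (edgeR adjusted p = 0.0262) and 0.24 without replicate 2 of Nutlin-3a-treated WT cells (edgeR adjusted p = 0.0453). USP28 was higher in KO cells under Nutlin-3a by 0.33 ± 0.06 (SE, edgeR adjusted p = 0.000147), while under DMSO the difference was 0.11 ± 0.06 (edgeR adjusted p = 0.115). The DMSO difference was called with upper-quartile factors (0.14, edgeR adjusted p = 0.0438) and in limma, at 0.17 on log2(RPKM + 0.1) and 0.15 on log2(RPKM + 1) (limma adjusted p = 0.0301 and 0.0308).

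The USP28 window of 250 bases before the annotated start farthest upstream is shown for the gene with the largest fall. Capitals again mark motif matches, all of them GC boxes.
USP28 (chr11:113875573-113875822, minus strand): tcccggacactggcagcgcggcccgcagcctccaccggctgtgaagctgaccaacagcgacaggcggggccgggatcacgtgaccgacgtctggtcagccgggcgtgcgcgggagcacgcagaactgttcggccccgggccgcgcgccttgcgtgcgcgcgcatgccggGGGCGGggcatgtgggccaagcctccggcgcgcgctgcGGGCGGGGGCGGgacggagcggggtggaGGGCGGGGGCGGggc
It holds 5 GC boxes, all within 81 bases of the start and with 4 of them as 2 adjoining pairs, and no match to the other 4 motifs. Among the 9 windows the GC box was found in USP7, with 4 matches, in CREBBP, with 3, and in FAM193A and TP53BP1, with 2 each.

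USP7, which removes ubiquitin from MDM2 and p53, had 161 and 159.8 CPM in Nutlin-3a-treated KO cells and 169 and 169 CPM in DMSO-treated KO cells. In WT cells it had 176 and 188 CPM with Nutlin-3a and 203 and 204 CPM with DMSO. In CPM all 4 KO libraries were below all 4 WT libraries, and in each genotype Nutlin-3a-treated libraries were below DMSO-treated ones. In RPKM the genotypes overlapped, with 29.99 in replicate 1 of DMSO-treated KO cells and 29.83 in replicate 1 of Nutlin-3a-treated WT cells. USP7 was lower in KO cells, with a log2 change of -0.18 ± 0.05 under Nutlin-3a (SE, edgeR adjusted p = 0.00188) and of -0.27 ± 0.05 under DMSO (edgeR adjusted p = 5.1e-05), and on log2(RPKM + 0.1) the first was -0.09 (limma adjusted p = 0.0973). Nutlin-3a lowered USP7 in WT cells by a log2 change of -0.16 ± 0.05 (SE, edgeR adjusted p = 0.00560). That change was -0.14 without replicate 1 of DMSO-treated WT cells, -0.09 without replicate 1 of Nutlin-3a-treated WT cells and -0.08 without the 3 libraries. Its size thus depends on which libraries are kept. In KO cells the change was -0.07 ± 0.05 (SE, edgeR adjusted p = 0.211).

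The ratio of USP7 to USP28 RPKM set all 4 groups apart. It was 3.81 and 3.71 in Nutlin-3a-treated KO cells, against 3.17 and 3.07 in DMSO-treated KO cells. In WT cells it was 5.27 and 5.45 with Nutlin-3a, against 3.98 and 4.11 with DMSO. The ranges of the groups did not overlap.

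TP53BP1, whose protein 53BP1 gathers at DNA breaks and binds p53, had 106 and 114 CPM in Nutlin-3a-treated KO cells and 121 and 136 CPM in DMSO-treated KO cells. WT cells had 104 and 118 CPM with Nutlin-3a and 106 and 110.4 CPM with DMSO. The DMSO-treated KO libraries were above all the others. TP53BP1 fell with Nutlin-3a in KO cells, with a log2 change of -0.22 ± 0.07 (SE, edgeR adjusted p = 0.0136), and was higher in KO cells under DMSO by 0.24 ± 0.07 (edgeR adjusted p = 0.00447). Without replicate 2 of DMSO-treated KO cells neither was called, at -0.14 (edgeR adjusted p = 0.211) and 0.16 (edgeR adjusted p = 0.0923). The first was also lost without replicate 1 of Nutlin-3a-treated KO cells (-0.17, edgeR adjusted p = 0.162), and the second without replicate 1 of DMSO-treated WT cells (0.22, edgeR adjusted p = 0.0561).

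In WT cells the Nutlin-3a response of TP53BP1 was 0.04 ± 0.07 (SE, edgeR adjusted p = 0.658). It was 0.15 without replicate 1 of Nutlin-3a-treated WT cells and 0.18 without the 3 libraries. The difference of the 2 responses was -0.26 ± 0.09 (SE, edgeR adjusted p = 0.0518), which missed the threshold. That difference was called at -0.27 without the low-count filter (edgeR adjusted p = 0.00406). It was -0.35 without replicate 1 of Nutlin-3a-treated WT cells, -0.34 without replicate 1 of DMSO-treated KO cells and -0.44 without the 3 libraries. Under Nutlin-3a the log2 difference of KO and WT cells was -0.01 ± 0.07 (SE, edgeR adjusted p = 0.876), and without the 3 libraries it was -0.17. TUBGCP4, on the opposite strand, shares 3732 bases with TP53BP1 in the annotation used here. It fell with Nutlin-3a, with log2 changes of -0.25 ± 0.08 in KO and -0.49 ± 0.08 in WT cells (SE, edgeR adjusted p = 0.0171 and 4.1e-05). Since the strand setting of the counting is not given, reads of TP53BP1 and TUBGCP4 may be mixed as well.

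Beyond the 10 genes, 9 lists of other p53-modifying enzymes and cofactors held 123 tested genes, chosen with earlier results of these data known. With Nutlin-3a 27 of the 123 were called higher and 47 lower in KO cells, beside 18.1% and 20.6% of all tested genes, and 34 higher and 60 lower in WT cells, beside 29.4% and 29.2%. Their median log2 fold change was -0.10 in KO cells, against -0.01 over all tested genes, and -0.12 in WT cells, against 0.02. Between genotypes 42 were higher and 41 lower in KO cells under Nutlin-3a, beside 32.7% and 30.4% of all tested genes, and 35 were higher and 45 lower under DMSO, beside 31.4% and 30.1%. The median differences were 0.02 and -0.04, against 0.02 and 0.01 over all tested genes.

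**Figure D5:**
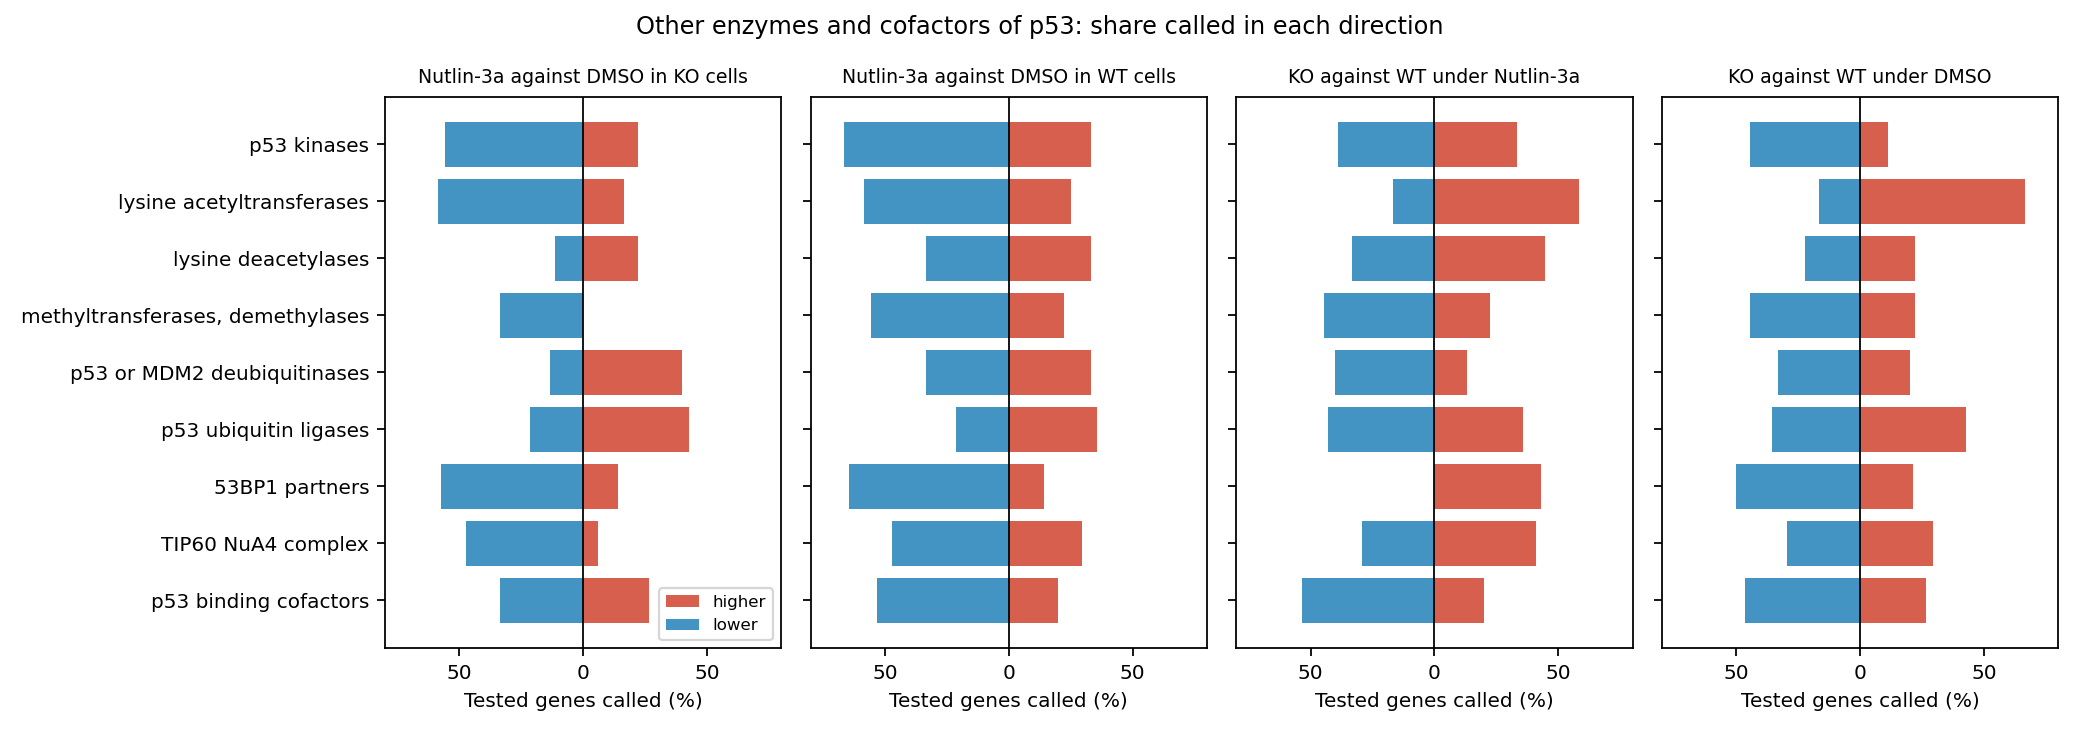
Share of the tested genes of each of 9 lists called higher (right, red) or lower (left, blue) at an edgeR adjusted p under 0.05 (horizontal axis, percent) in the 4 comparisons. Among the partners of 53BP1, 8 of 14 were lower with Nutlin-3a in KO cells and 9 of 14 in WT cells, beside 20.6% and 29.2% of all tested genes. Under Nutlin-3a 0 of the 14 were called lower in KO than in WT cells, beside 30.4%.

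Of 18 other p53 kinases, 4 were called higher and 10 lower with Nutlin-3a in KO cells, beside 18.1% and 20.6% of all tested genes, and 6 higher and 12 lower in WT cells, beside 29.4% and 29.2%. Their median log2 fold change was -0.18 in KO and -0.27 in WT cells. CHEK1, the checkpoint kinase of replication stress, averaged 39.4 ± 0.044 CPM in Nutlin-3a-treated KO cells and 84.3 ± 2.2 in DMSO-treated KO cells, and 23.8 ± 2.6 in Nutlin-3a-treated WT cells and 86.8 ± 1.6 in DMSO-treated WT cells (SD, n = 2 each). Its log2 fold change was -1.10 in KO and -1.87 in WT cells, and the 2 responses differed by 0.77 ± 0.09 (SE, edgeR adjusted p = 4.1e-06). The mitotic kinases TTK (log2 changes of -0.94 in KO and -1.54 in WT cells) and AURKA (-1.20 in WT cells) fell as well. STK11, the kinase LKB1, was below its WT level in KO cells under Nutlin-3a, with a log2 change of -0.52 ± 0.05 (edgeR adjusted p = 1.2e-07).

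Among 14 partners of 53BP1 and genes of the chromatin response to breaks, 2 were higher and 8 lower with Nutlin-3a in KO cells, beside 18.1% and 20.6% of all tested genes, and 2 higher and 9 lower in WT cells, beside 29.4% and 29.2%. The medians of the list were -0.31 in KO and -0.48 in WT cells. H2AFX, the histone variant marked at breaks, fell, with log2 changes of -0.93 in KO and -1.84 in WT cells. TOPBP1 fell, with log2 changes of -0.76 and -1.40, and the scaffold gene MDC1 had a log2 change of -1.07 in WT cells. Under Nutlin-3a 6 of the 14 were higher and 0 lower in KO than in WT cells, beside 32.7% and 30.4% of all tested genes, and under DMSO 3 were higher and 7 lower, beside 31.4% and 30.1%. H2AFX was higher in KO cells under Nutlin-3a by 0.60 ± 0.06 (SE, edgeR adjusted p = 5.6e-08). SUV420H2, a methyltransferase of the histone site that 53BP1 reads, was higher in KO cells by 0.55 under Nutlin-3a and 1.35 under DMSO.

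Of 12 other acetyltransferases and partner ING proteins, 2 were higher and 7 lower with Nutlin-3a in KO cells, beside 18.1% and 20.6% of all tested genes, and 3 higher and 7 lower in WT cells, beside 29.4% and 29.2%. In KO cells 7 were higher and 2 lower than in WT cells under Nutlin-3a, beside 32.7% and 30.4%, and 8 higher and 2 lower under DMSO, beside 31.4% and 30.1%. The median differences of the list were 0.21 under Nutlin-3a and 0.16 under DMSO. KAT2B, which encodes the acetyltransferase PCAF, averaged 32.2 ± 0.41 CPM in Nutlin-3a-treated KO cells and 24.5 ± 1.1 in DMSO-treated KO cells, and 12.8 ± 0.27 in Nutlin-3a-treated WT cells and 4.77 ± 0.10 in DMSO-treated WT cells (SD, n = 2 each). It was higher in KO cells by 1.33 ± 0.08 under Nutlin-3a and by 2.36 ± 0.09 under DMSO (SE, edgeR adjusted p = 5.0e-11 and 1.4e-13). ING1, a reader protein of acetyltransferase and deacetylase complexes, was lower in KO cells under DMSO, with a log2 change of -1.01 ± 0.08 (edgeR adjusted p = 5.2e-09).

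The 17 other subunits of the TIP60 NuA4 complex had 1 higher and 8 lower with Nutlin-3a in KO cells, beside 18.1% and 20.6% of all tested genes, and 5 higher and 8 lower in WT cells, beside 29.4% and 29.2%. The 5 higher in WT cells are near the share of all tested genes. The actin-like subunit ACTL6A fell, with log2 changes of -0.41 in KO and -0.69 in WT cells, and YEATS4, the GAS41 subunit, with log2 changes of -0.48 and -0.99. The ATPase subunit RUVBL1 was below its WT level in KO cells under Nutlin-3a, with a log2 change of -0.51 ± 0.04 (SE, edgeR adjusted p = 6.7e-09), while the scaffold subunit EPC1 was higher by 0.50 ± 0.07 (edgeR adjusted p = 2.6e-06).

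Of 15 other deubiquitinases of p53 or MDM2, 6 were higher and 2 lower with Nutlin-3a in KO cells, beside 18.1% and 20.6% of all tested genes, and 5 were higher and 5 lower in WT cells, beside 29.4% and 29.2%. The WT counts are near the shares of all tested genes. USP29 had 59 and 57 reads in Nutlin-3a-treated KO cells and 85 and 73 reads in Nutlin-3a-treated WT cells, and 0 reads in all 4 DMSO-treated libraries. Against a floor of 3 reads over the DMSO group it was at least 42.0-fold higher in KO and at least 53.5-fold higher in WT cells with Nutlin-3a. USP11 was higher in KO than in WT cells by 0.72 ± 0.05 under Nutlin-3a and 0.67 ± 0.04 under DMSO (SE, edgeR adjusted p = 1.1e-10 and 2.6e-10).

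Of 14 ubiquitin ligases of p53 other than MDM2 and MDM4, 6 were higher and 3 lower with Nutlin-3a in KO cells, beside 18.1% and 20.6% of all tested genes, and 5 were higher and 3 lower in WT cells, beside 29.4% and 29.2%. WWP1 rose by 0.51 in KO and 0.71 in WT cells, and was below its WT level in KO cells, with a log2 change of -0.69 ± 0.06 under Nutlin-3a (SE, edgeR adjusted p = 1.4e-08). STUB1, the chaperone-linked ligase CHIP, was lower in KO cells, with a log2 change of -0.53 under Nutlin-3a and -0.70 under DMSO.

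Among 9 deacetylases 2 were higher and 1 lower with Nutlin-3a in KO cells, beside 18.1% and 20.6% of all tested genes, and 3 were higher and 3 lower in WT cells, beside 29.4% and 29.2%, so that these counts are near those shares. SIRT2, a deacetylase that can act on p53, rose by 0.54 in KO and 1.07 in WT cells, a difference of -0.53 ± 0.10 (SE, edgeR adjusted p = 0.000480). Among 9 methyltransferases, demethylases and reader proteins 0 were higher and 3 lower with Nutlin-3a in KO cells, and 2 were higher and 5 lower in WT cells, beside the same shares. SMYD2, which methylates p53, fell, with log2 changes of -0.28 in KO and -0.68 in WT cells, and SETD7 was below its WT level in KO cells, with a log2 change of -0.59 under Nutlin-3a and -0.71 under DMSO.

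Of 15 p53-binding cofactors 4 were higher and 5 lower with Nutlin-3a in KO cells, beside 18.1% and 20.6% of all tested genes, and 3 were higher and 8 lower in WT cells, beside 29.4% and 29.2%. TP53INP1, a target gene of p53 whose protein promotes its phosphorylation, averaged 281 ± 2.9 CPM in Nutlin-3a-treated KO cells and 50.7 ± 1.7 in DMSO-treated KO cells, and 421 ± 24 in Nutlin-3a-treated WT cells and 18.7 ± 0.85 in DMSO-treated WT cells (SD, n = 2 each). Its log2 fold change was 2.47 in KO and 4.49 in WT cells, a difference of -2.02 ± 0.08 (SE, edgeR adjusted p = 7.8e-12). HMGB1, a chromatin protein that binds p53, fell, with log2 changes of -0.66 in KO and -1.09 in WT cells.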

How the data were processed

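The deposited values are raw counts, whole reads per gene before any scaling, and RPKM, which the authors scaled to gene length and library total, per the file headers and values. The submitters' processing notes give, in no stated order, bcl2fastq, Bowtie2 2.2.9.0, FastQC 0.11.5, HTSeq 0.8.0, Picard 2.9.4, SAMtools 1.5 and TopHat2 2.1.1, and the build GRCh37 (hg19). Neither annotation nor strand setting is given in the sources used here. Libraries are strand-specific, per the labels' protocols. Gene lengths were computed from deposited RPKM and counts. Overlaps between genes came from an annotation of GRCh38.

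All 8 libraries were fitted with edgeR 4.0.16 in R 4.3.3 as 4 group means, leaving 4 residual degrees of freedom, on the 15879 of 25369 genes kept by filterByExpr, with TMM scaling. Robust quasi-likelihood tests gave 5 comparisons, with Benjamini-Hochberg adjustment over all tested genes. CPM uses TMM-scaled totals, and log2 changes are fitted ones. The fit was tested on data simulated with the same spread in every group, few changed genes and no gene-length trend. That test does not cover the wider replicate spread and the length trend of Nutlin-3a-treated WT cells. Alternatives were other scalings, filters, thresholds and fewer libraries, DESeq2 1.42.0, limma 3.58.1 on log2(RPKM + 0.1) or log2(RPKM + 1), the replicate number as a block, and, added after seeing the data, removal of a gene-length trend.

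The 10 genes and the lists were chosen with earlier results of these data known. List genes eligible to be named are up to 3 called genes per list and comparison with the smallest p, and the genes most like FAM193A and FAM193B are the 3 with the highest correlation each. For 5 list genes an older symbol is used, matched through synonyms, and HIPK4 and USP26 were not tested. In bulk RNA, fewer cells with a transcript and less of it per cell cannot be told apart. The 10 genes had 775 to 6499 reads per library each. SE and p-values rest on an estimate of spread per gene shared by all groups of 2 replicates and moderated across genes. They do not measure the spread of the groups compared. Replicates differed most in Nutlin-3a-treated WT cells, and the shared estimate can understate the spread in comparisons with that group.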

Additional observations from a re-analysis of the deposited data

Results flagged for a closer look

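Of the 10 genes, 2 had a Nutlin-3a response that differed between the genotypes by a direct test. HIPK2 had a response of 0.02 in KO cells and 0.41 in WT cells on the log2 scale, a difference of -0.39 (edgeR adjusted p = 0.00546). EP300 had a response of -0.06 in KO cells and 0.18 in WT cells, a difference of -0.24 (edgeR adjusted p = 0.0429). Both genes are long, and both were higher in replicate 2 than in replicate 1 of Nutlin-3a-treated WT cells, by 19.6% and 16.4%. Without that replicate 2 the differences were -0.25 for HIPK2 (edgeR adjusted p = 0.00347) and -0.13 for EP300 (edgeR adjusted p = 0.141).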

How the results depend on the processing

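Over the 5 comparisons of each of the 10 genes, 506 values kept direction and side of the threshold under the alternatives other than single libraries left out, 24 newly passed it, 45 no longer did and 15 changed sign. These totals also take in the fit without 3 libraries described below, whose calls are not relied on here. With single libraries left out the numbers were 346, 11, 33 and 10. The number of the 10 genes called in the KO response was 3 at an adjusted p under 0.01, 3 by limma on unfiltered log2(RPKM + 0.1), and 2 to 7 with 1 library left out. For KO against WT under DMSO it was 5 to 8 with 1 library left out. For the Nutlin-3a response of KO minus that of WT cells it was 1 at 0.01, where 2744 of all genes were called, 1 by DESeq2, 0 under each of the 3 limma settings and 1 to 5 with 1 library left out. A further fit left out replicate 2 of KO Nutlin-3a, replicate 1 of WT Nutlin-3a and replicate 2 of WT DMSO, 3 libraries together. It leaves 1 library in every group but DMSO-treated KO cells, so its count is not given. The causes were not tested.

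Each value whose sign changed was uncalled in both fits, but the ranges given here also take in values that kept their sign and were called: the WT responses of CREBBP (-0.12) and TP53BP1 (0.15) and the difference of EP300 under Nutlin-3a (0.13). The WT response of CREBBP was 0.0069 with upper-quartile factors, 0.098 without those 3 libraries and -0.12 to 0.098 with 1 library left out, and that of TP53BP1 was -0.00056 without the length trend and -0.060 to 0.15 with 1 library left out. The KO response of HIPK2 was -0.00047 to 0.040 with 1 library left out. FAM193B under DMSO had a difference between KO and WT of -0.016 with DESeq2 factors, -0.016 with DESeq2, -0.076 without the 3 libraries, -0.032 without the length trend and -0.075 to 0.10 with 1 library left out. Under Nutlin-3a that of EP300 was -0.00080 with DESeq2 factors, -0.0012 with DESeq2, -0.070 without the 3 libraries and -0.090 to 0.13 with 1 library left out. That of TP53BP1 was 0.024 with upper-quartile factors, 0.078, 0.075 and 0.078 in limma on log2(RPKM + 0.1), log2(RPKM + 1) and unfiltered values, and -0.11 to 0.080 with 1 library left out. The difference of responses of ATM was 0.0017 without the length trend.

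Over all tested genes replicate numbers gave little sign of pairing, as deviations of same-numbered samples correlated between -0.02 and 0.23. This does not settle pairing for single genes. FAM193A and TP53BP1 each shifted the same way between replicates in all 4 groups, as given below. The share of all tested genes that did so was not computed. With the replicate number as a block, 6 of the 10 genes were called in the KO response, 8 in the WT response, 7 between genotypes under Nutlin-3a, 8 under DMSO and 3 for the difference of responses. The added calls were FAM193A in WT cells (0.17, edgeR adjusted p = 0.0181) and TP53BP1 for the difference (-0.25, edgeR adjusted p = 0.00988). A fit of only the 4 libraries compared was made for all but the difference of responses. Where 1 library of a group is left out, the other is assumed to vary like the rest. With the 3 libraries left out together, only DMSO-treated KO cells still have replicates to show that spread.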

Other observations

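FAM193A was lower in replicate 2 than in replicate 1 in all 4 groups, with log2 differences of -0.14 in Nutlin-3a-treated KO, -0.11 in DMSO-treated KO, -0.18 in Nutlin-3a-treated WT and -0.14 in DMSO-treated WT cells. TP53BP1 was higher in replicate 2 in all 4, by 0.11, 0.16, 0.18 and 0.05 in the same order. Over the 10 genes the chi-square per gene between replicates was 18.7 in Nutlin-3a-treated WT cells, against 2.71 to 4.01 in the other 3 groups. Over all genes it was 8.77 in Nutlin-3a-treated WT cells, against 2.34 to 3.95 in the other 3 groups.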
